A study of Arabidopsis thaliana with 204 samples.

Results

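In these data 10 B-box (BBX) factors of light signaling were followed in the leaf tip and in the petiole of Arabidopsis leaves in which only the tip was exposed to far-red (FR) light. They were BBX18 (AT2G21320), BBX19 (AT4G38960), BBX20 (AT4G39070), BBX21 (AT1G75540), BBX22 (AT1G78600), BBX24 (AT1G06040), BBX25 (AT2G31380), BBX28 (AT4G27310), BBX29 (AT5G54470) and BBX31 (AT3G21890), which are 10 of the 33602 loci of the read count table. They were listed by locus as B-box factors of light signaling, with earlier results of these data known, and no value in these data entered the rule. All 10 passed the filter for tests, a normalized read count averaging 1 or more over the samples.

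All plants were wild type (Col-0) and 28 days old, and every sample pooled material from 13 leaves. Control plants stayed in white light (WL) with a red to far-red ratio (R/FR) of 2.0, and in FRtip an FR light source lowered the R/FR at the leaf tip to 0.05. The leaf tip was harvested after 40, 60, 80, 100, 120, 140, 160, 180 and 300 min, and the abaxial (lower) and adaxial (upper) sides of the petiole base, which received no FR, from 60 min on. Each tissue, treatment and time point had 4 biological replicates, and only WL leaf tips at 40 min had 3.

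BBX proteins carry zinc-binding B-box domains near their N terminus, and many of them act through the bZIP factor HY5, which promotes photomorphogenesis. BBX20, BBX21 and BBX22 work with HY5, whereas BBX18, BBX19, BBX24, BBX25 and BBX28 are known as negative regulators of photomorphogenesis. The ubiquitin ligase complex of COP1 and SPA proteins controls the stability of HY5 and of several BBX proteins, and phytochromes that sense a low R/FR act upstream of both through COP1 and the PIF transcription factors.

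PIFs and HY5 bind G-boxes (CACGTG, its own reverse complement), so the 1000 bases upstream of each gene start were searched for this motif and for the evening element (AAAATATCT, either strand), a motif of clock-controlled promoters. A G-box was found in 14.8% of the 27434 promoters of that length and in those of 4 of the 10 genes, BBX18, BBX19, BBX28 and BBX29. The length was chosen after shorter windows had been seen to hold no G-box in a member, so these shares describe the promoters and are not a test. The evening element was found in 7.24% of all promoters and in those of BBX22, BBX24, BBX28 and BBX29. The related PBE-box (CACATG, either strand), which PIFs also bind, was in 37.7% of all promoters and in those of BBX19, BBX20 and BBX24. BBX28 and BBX29, which both rose in FRtip leaf tips, were alike in these letters, and their stretches are shown here with the G-box and the evening element in capitals. They come from the RefSeq assembly TAIR10.1 and read 5′ to 3′ along the strand of the gene. The BBX28 stretch is chr4:13675003-13675172 on the plus strand, from position -534 to -365 relative to the gene start, and the BBX29 stretch is chr5:22115872-22116041 on the minus strand, from -502 to -333.
BBX28: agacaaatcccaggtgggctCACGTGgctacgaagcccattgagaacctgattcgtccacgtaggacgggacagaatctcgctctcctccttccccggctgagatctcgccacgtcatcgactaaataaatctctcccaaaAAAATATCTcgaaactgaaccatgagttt
BBX29: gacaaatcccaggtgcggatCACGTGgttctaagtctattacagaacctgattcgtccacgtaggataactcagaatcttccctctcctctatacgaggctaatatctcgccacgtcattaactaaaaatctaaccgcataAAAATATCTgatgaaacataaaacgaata

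In both stretches the evening element began 121 bases after the start of the G-box. An evening element downstream of a G-box occurred in 147 of the 27434 promoters (0.536%), and in 2 of them, those of BBX28 and BBX29, at this distance. The distance was read from these same genes, so their match was given in advance and the count is not a test. Set base against base without gaps, 81 of the 170 positions were identical, and the longest run found in both stretches had 24 bases, agaacctgattcgtccacgtagga. The G-box of BBX18, the gene with the largest fall past the test in the petiole windows, is shown for comparison in its surroundings, chr2:9125363-9125408 on the plus strand, from position -900 to -855. A match is a description of the sequence, and binding was not measured.
BBX18: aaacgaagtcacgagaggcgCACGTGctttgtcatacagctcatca

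Values are read counts scaled by the size factor of their sample, called normalized read counts here. The 199 samples of the tests held between 805840 and 5538648 reads on genes, with a median of 2304846. Leaf tip samples were the shallowest, with medians of 1807196 reads in WL and 1603248 in FRtip. Most markers went with the labels. The summed level of the adaxial markers PHB, PHV, REV and AS2 ran from 341 to 468 in adaxial and from 177 to 393 in abaxial WL samples, which overlapped. That of the abaxial markers FIL, YAB3, KAN1, KAN2 and ARF4 ran from 394 to 643 in abaxial and from 236 to 387 in adaxial WL samples. Of these, KAN2 alone went the other way, lower on the abaxial side in WL (log2 fold change -0.28, SE 0.09, adjusted p = 0.00231, limma). The summed level of the shade markers PIL1, HAT4 and ATHB4 ran from 39.3 to 104 in WL and from 966 to 4395 in FRtip leaf tips. In the petiole this sum ran from 89.4 to 156 in WL and from 92.2 to 214 in FRtip on the abaxial side, and from 75.1 to 155 and from 89.0 to 171 on the adaxial side. PIL1 alone had a mean of 3.21 ± 2.40 in WL (SD, n = 35) and of 1173 ± 528 in FRtip leaf tips (SD, n = 36). Fewer cells of a type and less RNA per cell cannot be told apart in such bulk samples.

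In the leaf tip, FRtip changed 7 of the 10 transcripts within 40 to 80 min. BBX21, BBX28 and BBX29 rose, and BBX18, BBX22, BBX24 and BBX25 fell (adjusted p below 0.05, limma with Benjamini-Hochberg adjustment over 19964 genes). Of all genes tested, 10.4% changed, with 4.22% rising and 6.21% falling in this window. Over 100 to 180 min, 4 members rose (background 12.4%) and 2 fell (background 16.8%), and at 300 min 6 rose (background 5.26%) and 0 fell (background 5.48%, also 0 with edgeR and at an unadjusted p below 0.05). The median log2 fold change of the 10 members was -0.13, 0.19 and 0.65 in the 3 windows, and that of all genes stayed between -0.02 and -0.01. Fold changes are differences of log2(normalized read count + 1) and understate the change of low genes.

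**Figure D1:**
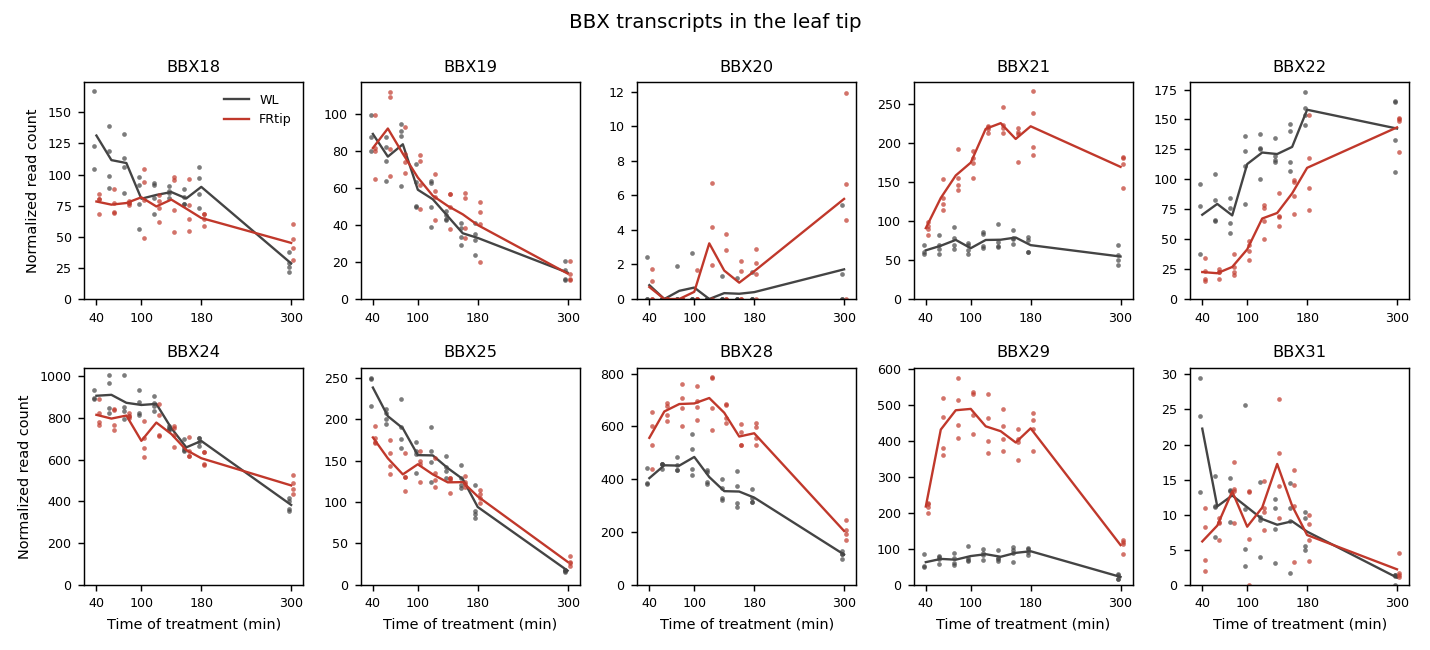
Normalized read counts of the 10 BBX genes in the leaf tip (y axis, from 0) against the time of treatment in min (x axis), in WL (grey) and FRtip (red), with each sample as a point and the mean of a group as a line. FRtip samples lay above all WL samples at 9 of 9 time points for BBX21 and BBX29 and at 8 of 9 for BBX28, and below them at 7 of 9 for BBX22.

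BBX29, a protein with a single B-box, had the largest change. At 40 min its normalized read counts were 50.5, 86.7 and 50.7 in WL and 199, 229, 226 and 217 in FRtip. At 80 min they were 89.0, 74.4, 53.6 and 61.2 in WL and 516, 444, 409 and 576 in FRtip. The lowest FRtip sample was above the highest WL sample at both times, as at the other 7 time points. BBX29 was 5.27-fold higher over 40 to 80 min (log2 fold change 2.40, SE 0.11, adjusted p = 3.73e-26) and 5.15-fold higher over 100 to 180 min (2.37, SE 0.08, adjusted p = 3.4e-32). By 300 min the level had dropped in both treatments, to 14.6, 25.97, 29.8 and 15.6 in WL and 118, 126, 114 and 84.5 in FRtip, and the fold change was still 5.11 (2.35, SE 0.18, adjusted p = 2.99e-15). At single time points the log2 fold change ran from 1.83 at 40 min to 2.80 at 80 min.

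BBX28, a single B-box relative of BBX29 that keeps HY5 from binding DNA, rose in the same windows by a smaller factor. Its normalized read counts at 140 min were 367, 400, 330 and 321 in WL and 684, 612, 631 and 680 in FRtip. The groups did not overlap at 8 of 9 time points, and the exception was 40 min, when the lowest FRtip value of 440 was just under the highest WL value of 443. The log2 fold change was 0.53 (SE 0.07, adjusted p = 5.34e-09) over 40 to 80 min, 0.73 (SE 0.05, adjusted p = 7.14e-19) over 100 to 180 min and 0.82 (SE 0.11, adjusted p = 8.65e-08) at 300 min. At 300 min WL samples had 115, 117, 99.0 and 126 and FRtip samples 207, 244, 193 and 170. The change of BBX29 did not differ between 300 min and 40 to 80 min beyond its error (-0.04, SE 0.21, adjusted p = 0.953), nor did that of BBX28 (0.30, SE 0.13, adjusted p = 0.177).

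BBX21, which activates HY5 transcription and whose mutants are long under shade, rose gradually. Its normalized read counts at 40 min were 57.8, 60.5 and 69.4 in WL and 89.5, 98.5, 93.5 and 82.8 in FRtip. At 180 min they were 60.3, 60.3, 76.0 and 80.3 in WL and 267, 185, 196 and 240 in FRtip. FRtip samples were above all WL samples at each of the 9 time points, and the log2 fold change at single time points ran from 0.54 at 40 min to 1.66 at 180 min. Over the windows it was 0.84 (SE 0.08, adjusted p = 5.56e-13), 1.51 (SE 0.06, adjusted p = 1.23e-29) and 1.63 (SE 0.13, adjusted p = 1.21e-14). The effect at 300 min was larger than that at 40 to 80 min by 0.80 (SE 0.15, adjusted p = 0.000199). In WL the means stayed between 54.6 and 79.0 throughout.

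BBX20 (BZS1), a positive regulator of photomorphogenesis that represses brassinosteroid responses, was close to the detection limit. In the leaf tip over 100 to 180 min it had no read in 16 of 20 WL samples and 1 read in each of the others, against 1 or more reads in 11 of 20 FRtip samples, with at most 5. It passed the test in this window (log2 fold change 0.74, SE 0.27, adjusted p = 0.0301), on levels of 0.340 ± 0.744 in WL and 1.57 ± 1.84 in FRtip (SD, n = 20 each). All WL samples lay under the floor of 3 reads, so this fitted value depends on the pseudocount, and the call was lost without replicate 2 (adjusted p = 0.195) or replicate 3 (adjusted p = 0.338).

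BBX22 (LZF1), which acts with HY5 in light-induced pigment accumulation and is degraded through COP1, had the largest fall over 40 to 80 min. At 60 min its normalized read counts were 66.0, 82.3, 104 and 65.2 in WL and 16.6, 24.7, 22.4 and 22.5 in FRtip, with no overlap. Over 40 to 80 min BBX22 fell to 0.333 of its WL level (log2 fold change -1.59, SE 0.13, adjusted p = 4.78e-15) and over 100 to 180 min to 0.564 of it (-0.83, SE 0.10, adjusted p = 4.8e-10). At 180 min the groups overlapped, with 160, 173, 154 and 146 in WL and 154, 118, 92.5 and 74.2 in FRtip. At 300 min the means were 142 ± 28.4 in WL and 143 ± 13.5 in FRtip (SD, n = 4 each), and the log2 fold change of 0.03 (SE 0.22) did not pass the test (adjusted p = 0.982). The early and the 300 min effects differed by 1.62 (SE 0.26, adjusted p = 6.39e-06). Between 40 and 300 min the mean went from 70.4 to 142 in WL and from 22.5 to 143 in FRtip.

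**Figure D2:**
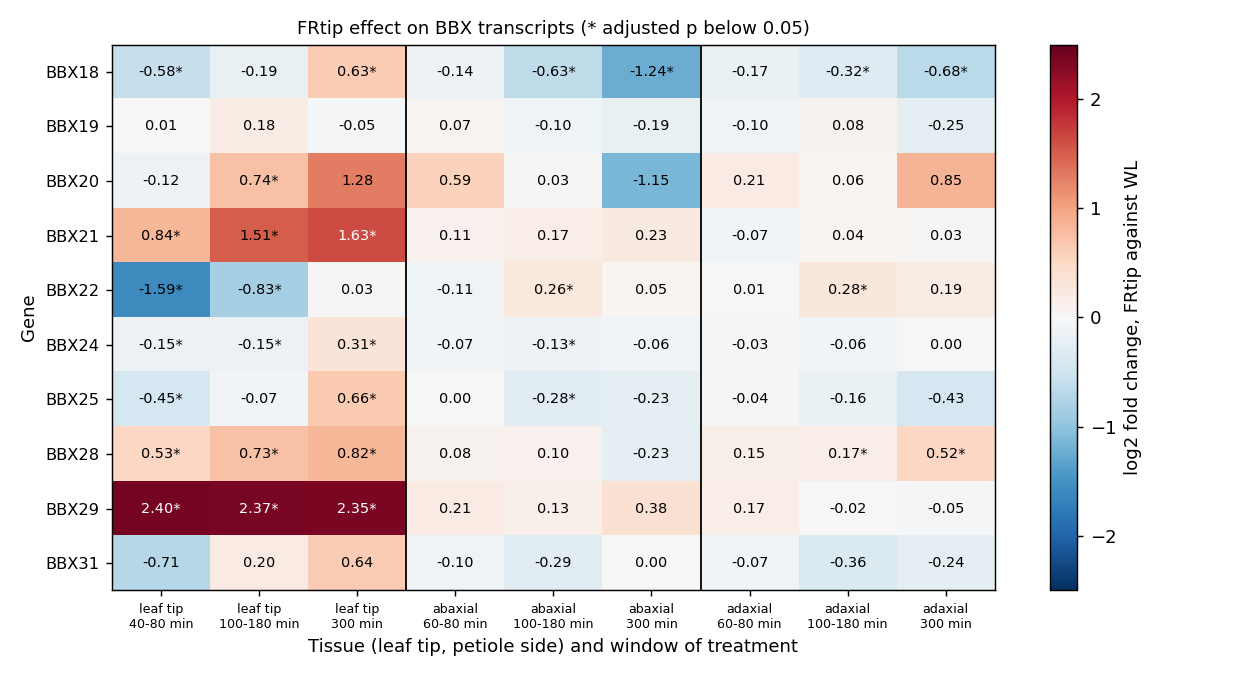
Log2 fold change of FRtip against WL (colour and printed number) for each BBX gene (y axis) in each tissue and window of treatment (x axis), with an asterisk where the adjusted p is below 0.05. BBX29 stood at 2.35 to 2.40 in the leaf tip, BBX22 was at -1.59 there and at 0.26 and 0.28 in the petiole sides over 100 to 180 min, and BBX18 fell in both petiole sides from 100 min on.

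BBX25, BBX24 and BBX18, negative regulators with a pair of B-boxes, fell over 40 to 80 min and were higher in FRtip at 300 min, and BBX19, of the same kind, did neither past the test. BBX25 (STH), which lowers HY5 activity, had 217, 249 and 251 normalized read counts in WL and 177, 171, 192 and 173 in FRtip at 40 min, with no overlap. Its log2 fold change was -0.45 (SE 0.07, adjusted p = 1.33e-06) over 40 to 80 min and -0.07 (SE 0.05, adjusted p = 0.358) over 100 to 180 min. At 300 min all FRtip samples, with 22.2, 34.2, 27.4 and 26.7, were above the WL samples, with 17.1, 17.3, 17.6 and 15.6 (0.66, SE 0.12, adjusted p = 2.62e-05). The change of direction from 40 to 80 min to 300 min came to 1.11 (SE 0.14, adjusted p = 1.77e-08). These 300 min values rest on 12 to 24 reads a sample, and with the edgeR count test the adjusted p was 0.0669.

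BBX24 (STO), the closest relative of BBX25 and a promoter of shade-induced elongation through DELLA proteins, moved in the same directions by small steps. Its normalized read counts at 100 min were 824, 933, 815 and 879 in WL and 706, 787, 613 and 656 in FRtip, and at 300 min 354, 400, 415 and 362 in WL and 486, 525, 460 and 434 in FRtip. The groups did not overlap at either time and were in opposite order. The log2 fold change was -0.15 (SE 0.05, adjusted p = 0.0259) over 40 to 80 min, -0.15 (SE 0.03, adjusted p = 0.000418) over 100 to 180 min and 0.31 (SE 0.08, adjusted p = 0.00333) at 300 min. The call at 40 to 80 min was lost when any replicate was left out and with edgeR (adjusted p = 0.0957), and that at 300 min without replicate 1 (adjusted p = 0.0979).

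BBX18, a repressor of photomorphogenesis that promotes turnover of the clock protein ELF3, had 106, 113, 133 and 85.2 normalized read counts in WL and 77.3, 78.6, 77.1 and 75.6 in FRtip at 80 min. All FRtip samples were below all WL samples there and at 3 other time points of the leaf tip. The log2 fold change was -0.58 (SE 0.11, adjusted p = 0.000133) over 40 to 80 min, -0.19 (SE 0.09, adjusted p = 0.0955) over 100 to 180 min and 0.63 (SE 0.19, adjusted p = 0.023) at 300 min. At 300 min the values were 29.3, 37.5, 21.7 and 25.95 in WL and 40.96, 47.9, 31.5 and 60.0 in FRtip, which overlapped, and the call there was lost without replicate 3 (adjusted p = 0.11) or replicate 4 (adjusted p = 0.234). The effects at 300 min and at 40 to 80 min differed by 1.21 (SE 0.22, adjusted p = 0.000115). In all, the effect at 300 min was above that at 40 to 80 min for 5 of the 10 genes, BBX18, BBX21, BBX22, BBX24 and BBX25 (background 4.24%), and below it for 0 (background 3.5%), where 7.74% of all genes had an effect that differed.

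BBX19, a repressor that binds COP1 and ELF3, showed no FRtip effect past the test in any window. At 80 min its normalized read counts were 90.9, 94.7, 61.1 and 87.9 in WL and 68.3, 78.6, 74.2 and 93.1 in FRtip. The groups overlapped at all 9 leaf tip time points, and the log2 fold change was 0.01 (SE 0.13, adjusted p = 0.993), 0.18 (SE 0.10, adjusted p = 0.194) and -0.05 (SE 0.22, adjusted p = 0.963) in the 3 windows. BBX31, a small single B-box protein that binds CONSTANS, was low, with 0 to 29.5 normalized read counts in WL and 0 to 26.5 in FRtip leaf tips. Its values at 40 min were 24.1, 29.5 and 13.3 in WL and 10.99, 8.21, 3.51 and 1.97 in FRtip, which did not overlap, but they overlapped at the other 8 time points. No window passed the test for BBX31 (adjusted p from 0.206 to 0.6251).

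By the rule used in the study for differentially expressed genes (DEGs) at single time points, which asks for an unadjusted p below 0.01 with a log2 fold change of more than 0.3 up or down, the 10 genes were called higher in FRtip 27 times and lower 11 times in the 90 combinations of gene and leaf tip time point. The background was 3.94% higher and 3.98% lower. BBX29 and BBX21 made up 9 calls each and BBX28 8, and 1 was BBX25 at 300 min. The lower calls were 6 for BBX22, 3 for BBX25 and 2 for BBX18. With 3 replicates the lower calls came to 4 to 8, with the fewest without replicate 3, and with edgeR to 17. The samples of the treatments did not overlap in 28 combinations with FRtip higher (background 5.61%) and in 17 with FRtip lower (background 6.62%).

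In the petiole, which received no FR, BBX18 fell in FRtip on both sides from 100 min on, and BBX22 rose on both sides over 100 to 180 min. Over 60 to 80 min 0 of the 10 genes passed the test on either side with limma (background 0.01% on the abaxial and 0.00501% on the adaxial side, either direction) or with edgeR, and at an unadjusted p below 0.05 there were 1 on the abaxial and 0 on the adaxial side. Over 100 to 180 min on the abaxial side 1 gene was higher (background 5.78%) and 3 were lower (background 4.37%, or 10.1% in either direction), and at 300 min 0 were higher (background 2.67%, also 0 with edgeR and at an unadjusted p below 0.05) and 1 lower (background 4.51%, or 7.19% in either direction). Among the shade markers, HAT4 rose over 100 to 180 min on both sides (abaxial log2 fold change 0.32, SE 0.05, adaxial 0.26, SE 0.06) and PIL1 on the abaxial side (0.47, SE 0.09, adjusted p = 0.00028), and their part in the BBX values was not tested. On the adaxial side 2 members were higher (background 3.15%) and 1 lower (background 1.63%, or 4.78% in either direction) over 100 to 180 min, and 1 was higher (background 1.26%) and 1 lower (background 1.98%, or 3.24% in either direction) at 300 min.

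**Figure D3:**
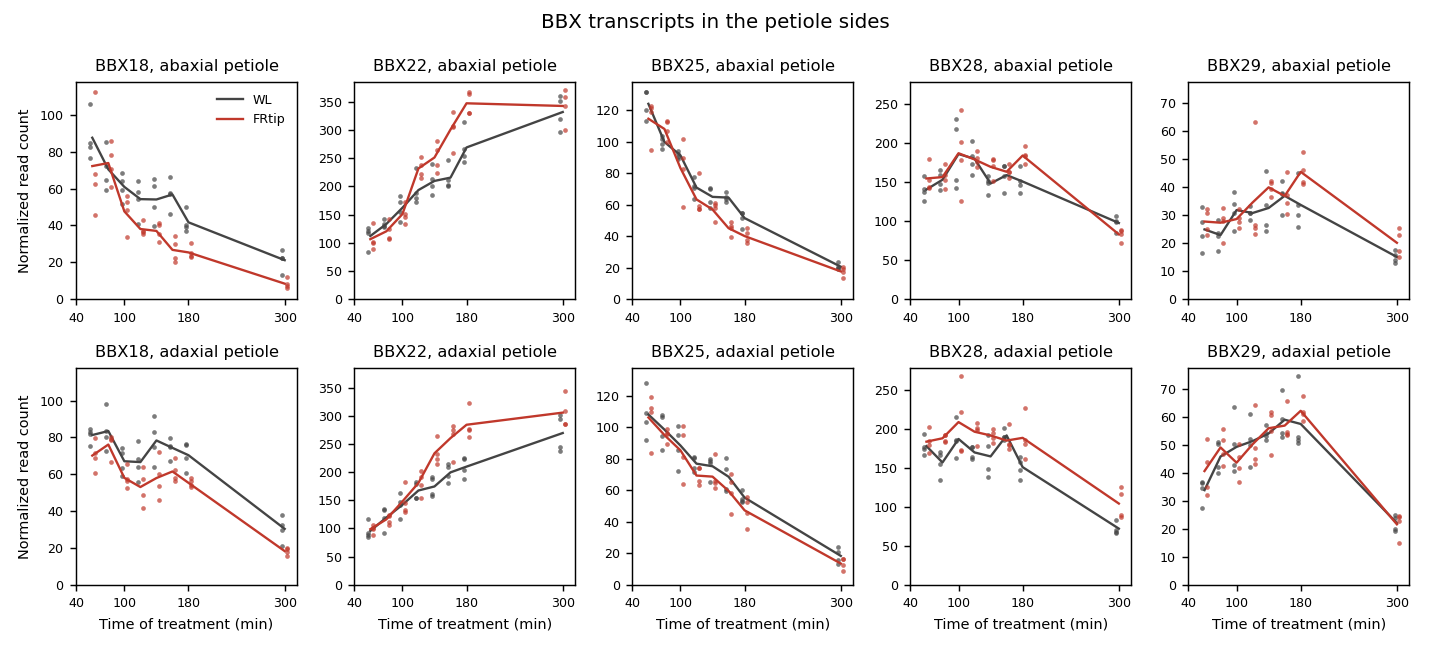
Normalized read counts (y axis, from 0, 1 scale per gene) of BBX18, BBX22, BBX25, BBX28 and BBX29 in the abaxial (top) and adaxial (bottom) petiole against the time of treatment in min (x axis), in WL (grey) and FRtip (red), with samples as points and group means as lines. BBX18 lay lower in FRtip on both sides, with abaxial means of 21.1 in WL and 8.33 in FRtip at 300 min, and 1 abaxial FRtip sample of BBX29 stood out at 120 min with 63.3.

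BBX18 had the largest petiole effect that passed the test over the windows. In the abaxial petiole at 160 min its normalized read counts were 57.5, 46.3, 66.5 and 56.8 in WL and 34.1, 22.5, 20.3 and 29.8 in FRtip, and at 300 min 22.2, 13.2, 26.6 and 22.2 in WL and 11.8, 6.20, 8.27 and 7.01 in FRtip. The groups did not overlap at either time. The abaxial log2 fold change was -0.14 (SE 0.14, adjusted p = 0.865) over 60 to 80 min, -0.63 (SE 0.09, adjusted p = 3.49e-07) over 100 to 180 min and -1.24 (SE 0.20, adjusted p = 2.04e-05) at 300 min. In the adaxial petiole the values at 300 min were 37.8, 32.5, 29.6 and 21.2 in WL and 19.5, 17.6, 20.1 and 15.5 in FRtip, again with no overlap. The groups overlapped at 5 of the 8 abaxial and 6 of the 8 adaxial time points. The adaxial log2 fold change was -0.32 (SE 0.06, adjusted p = 0.000199) over 100 to 180 min and -0.68 (SE 0.13, adjusted p = 0.000631) at 300 min. The adaxial call over 100 to 180 min was lost without replicate 2 (adjusted p = 0.0538).

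The fall of BBX18 was compared directly between the sides. Over 100 to 300 min the abaxial effect was lower than the adaxial effect by 0.35 on the log2 scale (value -0.35, SE 0.10, adjusted p = 0.0531). It passed the test with a pseudocount of 0.5, a mean of at least 10, median centring and edgeR (adjusted p from 0.0346 to 0.0493). The highest adjusted p over the alternatives was 0.37, without replicate 3. With limma 0 of the 10 genes had an effect that differed between the sides, where 0.837% of all genes did (0.466% with a higher and 0.371% with a lower abaxial effect), the unadjusted p was below 0.05 for 2 of the 10, and edgeR called 1.

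BBX22 rose in the petiole over 100 to 180 min, in the opposite direction to the leaf tip. In the abaxial petiole at 160 min it had 248, 211, 203 and 201 normalized read counts in WL and 308, 260, 306 and 332 in FRtip. In the adaxial petiole at 180 min it had 224, 225, 203 and 188 in WL and 322, 277, 263 and 275 in FRtip. In both cases all FRtip samples were above all WL samples. The groups overlapped at 6 of the 8 abaxial and 5 of the 8 adaxial time points. The log2 fold change was 0.26 (SE 0.05, adjusted p = 0.00044) on the abaxial and 0.28 (SE 0.05, adjusted p = 0.000202) on the adaxial side, and at 300 min 0.05 (SE 0.12, adjusted p = 0.894) and 0.19 (SE 0.12, adjusted p = 0.537).

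BBX25 fell on the abaxial side over 100 to 180 min (log2 fold change -0.28, SE 0.05, adjusted p = 9.61e-05), with 63.4, 61.7, 64.7 and 68.2 normalized read counts in WL and 48.99, 46.4, 39.5 and 45.4 in FRtip at 160 min, which did not overlap. The groups overlapped at the other 7 abaxial time points. On the adaxial side its value of -0.16 (SE 0.07) did not pass (adjusted p = 0.258), and the difference between the sides over 100 to 300 min was -0.07 (SE 0.08, adjusted p = 0.889). BBX24 was lower on the abaxial side by a small step (-0.13, SE 0.03, adjusted p = 0.00393), a call that was lost without replicate 2 (adjusted p = 0.237).

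BBX28 rose in the adaxial petiole at 300 min, with 67.3, 83.2, 70.7 and 66.5 normalized read counts in WL and 125, 116, 89.0 and 86.4 in FRtip (log2 fold change 0.52, SE 0.11, adjusted p = 0.00306). The groups did not overlap, but the call was lost without replicate 1 (adjusted p = 0.0788). At 5 of the 8 adaxial time points the groups overlapped. Its adaxial value of 0.17 (SE 0.05, adjusted p = 0.0423) over 100 to 180 min lost its call whichever replicate was left out. At 300 min the abaxial samples had 99.0, 84.3, 100 and 107 in WL and 88.1, 87.6, 84.1 and 72.2 in FRtip (-0.23, SE 0.13, adjusted p = 0.308). Over 100 to 300 min the effects on the sides differed by -0.18 (SE 0.07, adjusted p = 0.305).

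BBX29 and BBX21, which had the largest leaf tip changes over 100 to 180 min, did not pass the test in the petiole with limma. At 100 min BBX29 had 24.3, 30.6, 38.4 and 33.8 normalized read counts in WL and 32.3, 27.6, 25.5 and 28.99 in FRtip on the abaxial side, and the groups overlapped at all 8 time points on both sides. Its log2 fold change over 100 to 180 min was 0.13 (SE 0.09, adjusted p = 0.455) on the abaxial and -0.02 (SE 0.07, adjusted p = 0.953) on the adaxial side. For BBX21 these values were 0.17 (SE 0.06, adjusted p = 0.0656) and 0.04 (SE 0.06, adjusted p = 0.794), and the abaxial one passed with edgeR (adjusted p = 0.0426). All abaxial FRtip samples of BBX21 were above the WL samples at 2 of the 8 time points. At the other 6, and at all 8 on the adaxial side, its groups overlapped. The abaxial FRtip library of replicate 1 at 120 min stood apart for both genes, with 63.3 for BBX29 against 23.1 to 26.4 and 116 for BBX21 against 83.6 to 86.9 in the other 3. Its summed leaf blade markers (LHCB1.3, LHCB1.5, RBCS1A and RBCS3B) were at 39563 against 27384 to 30577 in the other 3. Its adaxial markers were at 343 against 229 to 293. Lower than in the other 3 were its abaxial markers, at 488 against 561 to 620, and its shade markers, at 124 against 163 to 166. Over all 32 abaxial FRtip samples the leaf blade sum ran from 20636 to 45925 and the adaxial sum from 229 to 429, so other samples had higher sums. The abaxial sum ran from 308 to 649 and the shade sum from 92.2 to 214, so other samples had lower ones. The part of these markers in the values of BBX29 and BBX21 was not tested. Without this library the log2 fold change over 100 to 180 min was 0.07 (adjusted p = 0.702) for BBX29 and 0.15 (adjusted p = 0.113) for BBX21, and the abaxial counts stayed at 1 higher and 3 lower. This setting was chosen after the values were seen.

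The FRtip effect over 100 to 180 min was tested directly between the leaf tip and the mean of the petiole sides. It differed for 5 of the 10 genes, where 26.8% of all genes differed. It was higher in the leaf tip for BBX29 by 2.31 (SE 0.10, adjusted p = 1.23e-47), for BBX21 by 1.40 (SE 0.07, adjusted p = 1.04e-39), for BBX28 by 0.60 (SE 0.06, adjusted p = 1.91e-15) and for BBX18 by 0.28 (SE 0.10, adjusted p = 0.0201), all on the log2 scale. The call of BBX18 was lost without replicate 2 (adjusted p = 0.258) or replicate 3 (adjusted p = 0.0804). For BBX22 it was lower in the leaf tip (-1.09, SE 0.08, adjusted p = 5.26e-26). The effects of BBX24 (-0.05, SE 0.04, adjusted p = 0.341) and BBX25 (0.15, SE 0.07, adjusted p = 0.128) did not differ past the test.

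By the DEG rule the 10 genes were called 3 times higher and 6 times lower in the 80 combinations of gene and abaxial time point (background 2.13% and 1.65%), and 4 times higher and 2 times lower in the 80 of the adaxial side (background 1.33% and 0.955%). With 1 replicate left out at a time, the higher calls came to 0 to 3 on the abaxial and 0 to 2 on the adaxial side, and the adaxial lower calls to 0 to 3. The abaxial lower calls were 3 for BBX18, at 160, 180 and 300 min, and 1 each for BBX20, BBX25 and BBX31. The abaxial higher calls were 2 for BBX22 and 1 for BBX20. On the adaxial side the higher calls were 3 for BBX22 and 1 for BBX28, and the lower calls 1 each for BBX18 and BBX31. BBX20 and BBX31 were at a few reads a sample in the petiole, and no abaxial sample of BBX31 had a read at 300 min in either treatment. On the abaxial side the samples of the treatments did not overlap in 6 combinations with FRtip higher (background 3.54%) and in 7 with FRtip lower (background 3.18%). On the adaxial side there were 7 such combinations with FRtip higher (background 2.43%) and 3 with FRtip lower (background 2.33%).

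In WL most members differed between tissues, as did most genes. With the leaf tip set against the mean of the petiole sides, 6 were higher (background 38.1%) and 3 lower (background 46.8%, or 84.9% in either direction). The members called in either direction were thus near the share of all genes. BBX28 had 99.0, 390 and 572 normalized read counts as lowest, median and highest value in 35 leaf tip samples, against 84.3, 152 and 231 in 32 abaxial and 66.5, 167 and 215 in 32 adaxial samples, and was higher in the leaf tip by 1.17 on the log2 scale (SE 0.03, adjusted p = 1.3e-69). BBX31 (1.31, SE 0.16), BBX29 (0.93, SE 0.06), BBX25 (0.77, SE 0.04), BBX24 (0.63, SE 0.02) and BBX18 (0.41, SE 0.05) were higher there too, with adjusted p of 9.19e-12 or less. BBX22 had 37.6, 115 and 173 in the leaf tip against 83.5, 195 and 361 in the abaxial petiole, and was lower in the leaf tip (-0.66, SE 0.04, adjusted p = 2.56e-30), as were BBX20 (-0.50, SE 0.16, adjusted p = 0.00359) and BBX21 (-0.21, SE 0.04, adjusted p = 1.06e-06). The sizes for the low genes depend on the setting, with -1.33 to -0.13 for BBX20, which had no read in most WL leaf tip samples, and 0.75 to 1.72 for BBX31 over the alternatives. BBX19 did not differ past the test (0.06, SE 0.06, adjusted p = 0.356).

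**Figure D4:**
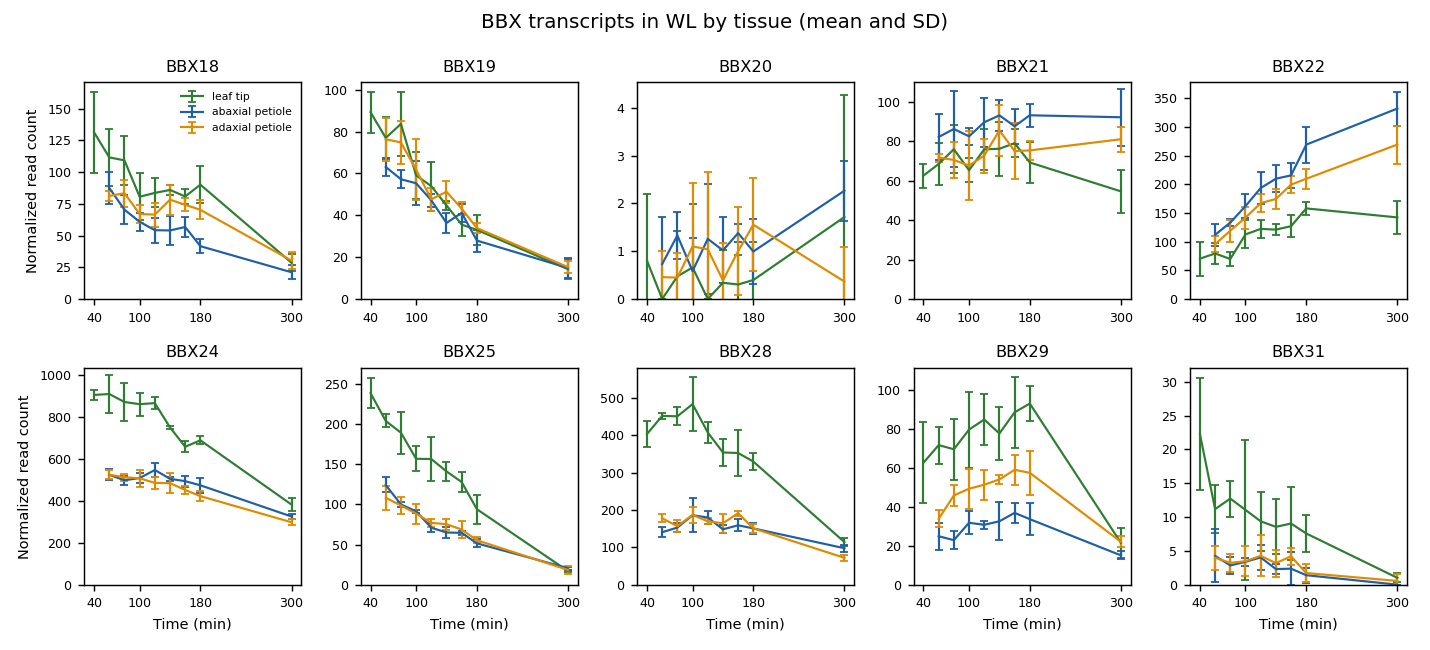
Mean normalized read count of each BBX gene in WL (y axis, from 0) against time in min (x axis) in the leaf tip (green), abaxial petiole (blue) and adaxial petiole (orange), with bars of 1 SD over 4 replicates (3 in the leaf tip at 40 min). BBX22 rose with time in each tissue, BBX25 fell in each, and the mean of BBX28 was highest in the leaf tip from 60 min on.

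Between the petiole sides in WL, 3 members were higher on the abaxial side (background 32%) and 3 lower (background 35%, or 67.1% in either direction). These counts were near the shares of all genes. BBX29 had 12.9, 29.2 and 45.8 normalized read counts as lowest, median and highest value on the abaxial and 19.4, 50.5 and 74.5 on the adaxial side, the largest difference of the 10 (abaxial minus adaxial -0.68, SE 0.07, adjusted p = 7.23e-17). BBX18 (-0.35, SE 0.06, adjusted p = 2.58e-07) and BBX19 (-0.22, SE 0.06, adjusted p = 0.0014) were also lower on the abaxial side. BBX21 (0.24, SE 0.05, adjusted p = 4.17e-06), BBX22 (0.23, SE 0.04, adjusted p = 8.45e-07) and BBX24 (0.08, SE 0.02, adjusted p = 0.00394) were higher there, and the call of BBX24 was lost without replicate 2 (adjusted p = 0.0599). BBX25 (-0.01, SE 0.05) and BBX28 (-0.04, SE 0.04) did not differ past the test, nor did the low BBX20 and BBX31.

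Most members changed over the hours of WL alone. By the F test over time points, 9 genes changed in the leaf tip (background 29%), 8 in the abaxial (background 18.6%) and 8 in the adaxial petiole (background 17%). The exceptions were BBX20 in each tissue and BBX21 in both petiole sides. BBX25 went from a leaf tip mean of 239 ± 19.1 (SD, n = 3) at 40 min to 16.9 ± 0.912 (SD, n = 4) at 300 min, and its change from 60 to 80 min to 300 min was -3.46 in the leaf tip (SE 0.10, adjusted p = 4.45e-35), -2.39 on the abaxial (SE 0.10, adjusted p = 7.01e-26) and -2.46 on the adaxial side (SE 0.14, adjusted p = 1.04e-20). BBX19 dropped in the same way (-2.45, -2.004 and -2.24), as did BBX18 (-1.92, -1.88 and -1.44) and BBX28 (-1.98, -0.59 and -1.21). BBX22 was the one member to rise, by 0.93 (SE 0.19, adjusted p = 9.41e-05), 1.44 (SE 0.10, adjusted p = 1.05e-16) and 1.33 (SE 0.10, adjusted p = 7.15e-16). In the leaf tip 1 member was higher (background 13.3%) and 8 lower (background 15.2%) at 300 min than at 60 to 80 min, and on each petiole side 1 was higher and 7 were lower, where 25.2% of all genes changed on the abaxial and 22.2% on the adaxial side. The call of BBX21 in the leaf tip was lost without replicate 2 (adjusted p = 0.208) or replicate 3 (adjusted p = 0.0764), and that of BBX29 on the abaxial side without replicate 1 (adjusted p = 0.0515) or replicate 2 (adjusted p = 0.103). Time of treatment and time of day move together in this design and cannot be told apart.

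Partners and targets of the BBX proteins were read from lists set by name. Of 8 partners tested in the leaf tip, 1 rose and 1 fell over 40 to 80 min (background 4.22% and 6.21%), 1 rose and 2 fell over 100 to 180 min (background 12.4% and 16.8%), and 3 rose and 0 fell at 300 min (background 5.26% and 5.48%). With 8 genes, counts of 1 or 2 are near these shares. HFR1, a bHLH factor that restrains PIFs, had a mean normalized read count of 0.513 ± 0.887 in WL (SD, n = 35) and of 314 ± 153 in FRtip (SD, n = 36). HY5 was at -0.28 (SE 0.13, adjusted p = 0.12) over 100 to 180 min and rose by 1.78 on the log2 scale at 300 min (SE 0.30, adjusted p = 1.1e-05), and its homolog HYH went from -0.38 (SE 0.15, adjusted p = 0.043) to 0.99 (SE 0.33, adjusted p = 0.041). COP1 did not pass the test in any leaf tip window (log2 fold changes from -0.06 to -0.02), and SPA3 fell over 100 to 180 min (-0.36, SE 0.06, adjusted p = 1.2e-06).

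Of 8 HY5 targets, 4 were higher in FRtip leaf tips over 100 to 180 min (background 12.4%) and at 300 min (background 5.26%), and 0 were lower (background 16.8% and 5.48%). They were the flavonoid genes CHS (0.50 and then 3.68 on the log2 scale), F3H (1.02 and 1.91), FLS1 (0.63 and 1.88) and CHI (0.33 and 1.10). The median of the list was 0.31 over 100 to 180 min and 1.13 at 300 min, against -0.01 over all genes in both. In the petiole over 100 to 180 min 0 of the 8 targets rose (background 5.78% on the abaxial and 3.15% on the adaxial side), and 1 fell on the abaxial side (background 4.37%), MYB75, an activator of anthocyanin genes named after its value was seen (-0.66, SE 0.14, adjusted p = 0.00044). HYH fell on both sides in that window (-0.55, SE 0.15, adjusted p = 0.0072 abaxial and -0.40, SE 0.07, adjusted p = 5.7e-05 adaxial), and HY5 on the adaxial side (-0.36, SE 0.07, adjusted p = 0.00072).

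Of the 22 other BBX genes, 18 were tested, and 3 rose (background 12.4%) and 5 fell (background 16.8%) in the leaf tip over 100 to 180 min. BBX6 (1.23, SE 0.04) and BBX17 (1.29, SE 0.10) rose, BBX3 fell (-0.66, SE 0.06), and BBX14 had the largest fall of the 18 (-2.08, SE 0.05, adjusted p = 3.6e-38). The median of these 18 genes was -0.04, against 0.19 for the 10 members and -0.01 for all genes. In the abaxial petiole over 100 to 180 min 0 of the 18 rose (background 5.78%) and 5 fell (background 4.37%). They were BBX14 (-0.70, SE 0.11, adjusted p = 2.8e-06) and, named after their values were seen, BBX16 (-0.63), BBX30 (-0.60), BBX15 (-0.49) and BBX2 (-0.39).

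The genes whose group means followed each member most closely were found by Pearson's r of log2 means over the 50 groups of the 3 tissues, which share time of day, tissue and treatment. BBX19 was closest to RVE8 (r = 0.972), a clock gene, and BBX25 to AT3G12320 (r = 0.976). BBX18 was closest to SPA3 (r = 0.925), BBX21 to PHYA (r = 0.939), the phytochrome of far-red sensing, and BBX29 to MAKR6 (r = 0.949). For BBX22 and BBX24 the closest genes were TUB5 (r = 0.939) and APR2 (r = 0.961), and for BBX28 AT4G38860 (r = 0.946). Over the 18 leaf tip groups BBX19 was closest to VTC2 (r = 0.985), followed by CCA1 (r = 0.984), a morning clock gene, and BBX25 was closest to GNC (r = 0.982). Among the members themselves r over the 50 groups was 0.906 for BBX28 with BBX29, 0.902 for BBX19 with BBX25 and 0.897 for BBX24 with BBX28. It was 0.885 for BBX18 with BBX25 and 0.882 for BBX24 with BBX25. BBX22 had an r of -0.783 with BBX28 and -0.763 with BBX24 over the 50 groups, and of -0.634 and -0.428 over the 18 leaf tip groups. BBX20 and BBX31 were left out of these correlations because of their low counts.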

How the data were processed

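The 10 members and all gene lists were chosen with earlier results of these data known. The authors deposited signal values, which are reads counted per gene on TAIR10 and scaled by DESeq2 size factors, for 33602 loci in 204 samples. The submitters' processing notes name FastQC, STAR, Picard, HTSeq and DESeq. How reads that match several genes and reads on either strand were counted is not given in the sources used here. All values (100%) were whole multiples, within 0.001, of the value of 1 read, so reads were recovered, with size factors from 0.308 to 2.68.

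Log2(value + 1) was tested for 19964 genes with a mean of at least 1, using limma 3.58.1 in R 4.3.3, with 1 fit per tissue in which every combination of treatment and time had its own mean, or 1 fit over tissues for differences between them. For the DEG rule each time point had its own fit. Tests were two-sided and p-values Benjamini-Hochberg adjusted, with a threshold of 0.05. Of 204 samples 199 were tested. The other 5, petiole samples at 40 min, formed groups of at most 2. No 2 of the 297 pairs of samples of a group were alike to within counting error (lowest ratio of squared difference to counting error 1.41). Scripts were tested on simulated data. The labels do not tie samples to plants, so the tissues were treated as independent samples.

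Named genes were the 10 members, PIL1, HY5, HYH and COP1, up to 4 genes of each list (partners, targets, other BBX genes) with the smallest p in the leaf tip over 100 to 180 min, and, where the mean was 10 or more, genes out of the 2 most like each member. Promoter windows of 1000 bases come from the RefSeq annotation of TAIR10.1, and this length was chosen after shorter windows had been seen to hold no G-box in a member. Windows of BBX19, BBX22, BBX24 and BBX25 reach into a neighboring gene. As alternatives, the pseudocount was 0.5 or 5, the minimum mean 10 or none, and fits were made with median centring, with the replicate number as a block, with edgeR 4.0.16 on the recovered reads, and without each replicate in turn. Floors and reads cover counting error only. Python 3.11.15 with pandas 2.3.3, NumPy 2.4.6 and matplotlib 3.10.9 was used for tables and figures.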

Additional observations from a re-analysis of the deposited data

Results flagged for a closer look

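Groups of 4 replicates were searched for 1 sample far from the other 3, which chance alone gives in about 1 in 20 groups. Of 392 groups of 8 members (BBX20 and BBX31 left out), 14 (3.57%) held such a sample. The abaxial FRtip 120 min library of replicate 1 was found for 3 genes, BBX19 (47.5 against 35.2 to 36.3), BBX21 (116 against 83.6 to 86.9) and BBX29 (63.3 against 23.1 to 26.4). In the leaf tip the samples were BBX22 in FRtip at 300 min (123 against 148 to 151), BBX25 in FRtip at 140 min (111 against 126 to 129) and BBX28 in WL at 60 min (440 against 456 to 457). In the abaxial petiole they were BBX19 in WL at 160 min (47.7 against 38.4 to 39.6), BBX21 in WL at 180 min (84.4 against 95.6 to 96.9), BBX25 in FRtip at 60 min (95.0 against 119 to 123) and BBX25 in FRtip at 120 min (79.9 against 57.2 to 59.1). In the adaxial petiole they were BBX18 in FRtip at 80 min (66.9 against 78.3 to 80.2), BBX21 in FRtip at 160 min (83.5 against 65.5 to 67.6), BBX29 in FRtip at 160 min (65.5 against 53.5 to 54.8) and BBX29 in WL at 180 min (74.5 against 50.7 to 52.97).

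The FRtip effect differed between tissues or times by a test of the difference itself for these members, on the log2 scale. Between the leaf tip and the petiole over 100 to 180 min the differences were 2.31 for BBX29, 1.40 for BBX21, 0.60 for BBX28, 0.28 for BBX18 and -1.09 for BBX22. Between 300 min and 40 to 80 min in the leaf tip they were 1.62 for BBX22, 1.21 for BBX18, 1.11 for BBX25, 0.80 for BBX21 and 0.46 for BBX24.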

How the results depend on the processing

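Across 79 called values of single members and their alternatives, 867 values were computed. Of these, 842 kept their direction and call, 25 lost the call and 0 turned in direction, and 66 of the 79 kept the call under every alternative run. Leaving out a replicate ended the call in 23 cases and edgeR in 2 (BBX24 in the leaf tip at 40 to 80 min and BBX25 there at 300 min). Of 32 counts of members, 22 did not move. In the abaxial petiole over 100 to 180 min 2 members were higher, not 1, with edgeR and with the replicate block, BBX21 being added. The effect differed between the petiole sides for 1 member, BBX18, and not for 0, with a pseudocount of 0.5, a mean of at least 10, median centring, the replicate block and edgeR. DEG calls lower in the leaf tip were 17, not 11, with edgeR, and those lower in the adaxial petiole 1, not 2, with a pseudocount of 0.5, a mean of at least 10 and the replicate block.

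With each replicate left out in turn, the members lower in the abaxial petiole at 300 min were 1 to 2 (2 without replicate 4). Over 100 to 180 min in the adaxial petiole the higher members were 1 to 1 against 2 with all replicates, and the lower ones 0 to 1. At 300 min there the higher ones were 0 to 1. DEG calls were 4 to 8 lower in the leaf tip, 0 to 3 higher in the abaxial petiole, and 0 to 2 higher and 0 to 3 lower in the adaxial petiole. Fewer samples enter these fits.

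The replicate numbers were not taken as pairs. Deviations of WL and FRtip samples with the same number had a median correlation of 0.13 over 99 pairs (-0.18 to 0.41), 62 of them over 0.1, against -0.04 for other numbers, and 85 of 99 WL samples correlated best with their own number, which is a hint from the data and not from the design. The block ended the call of 0 members. BBX20 and BBX31 were too low for a firm statement at this depth.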

Other observations

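At 40 min the petiole had 1 or 2 samples of a kind, and they entered no comparison. BBX18 had normalized read counts of 88.0 in the abaxial WL sample and 74.6 in the abaxial FRtip sample, and of 110 and 70.1 in WL and 114 in FRtip on the adaxial side. BBX22 had 105 in WL and 69.8 in FRtip on the abaxial side, and 68.1 and 85.7 in WL and 80.0 in FRtip on the adaxial side. For BBX29 the abaxial values were 21.2 in WL and 19.03 in FRtip, and the adaxial ones 34.7 and 30.1 in WL and 34.3 in FRtip.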
